A study of Mus musculus with 34 samples.

Results

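The IL-12 family subunit genes are 5 mouse genes, Il12a, Il12b, Il23a, Il27 and Ebi3, taken by name from 21938 protein-coding genes of the GENCODE annotation of mm10. For each gene, peaks of all 30 lists of the series were collected within 2.5 kb of the start site (the promoter) and within 100 kb of it, and were compared across 4 conditions. The start site is that of the gene's longest transcript. Each family cytokine is a pair of subunits. The p35 chain (Il12a) and the p40 chain (Il12b) form IL-12, p19 (Il23a) and p40 form IL-23, p28 (Il27) and EBI3 form IL-27, and EBI3 can also pair with p35. Dendritic cells make these cytokines after they sense microbes, and the cytokines steer the type of T cell that responds. NF-κB, a family of transcription factors that enter the nucleus after such signals, is a known activator of several of these genes, and p65 (RelA) is one of its subunits.

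The data were ChIP-seq peak lists from bone marrow-derived dendritic cells (BMDCs) of C57BL/6 mice, whose label reads 8 weeks, which are made by culturing bone marrow for 6 days in GM-CSF. Control cells had the genotype CreER (WT) and the others CreER;CTCF fl/fl (KO), and 4-OH tamoxifen, which activates the Cre recombinase, was given to both on the first day of culture. The conditions were unstimulated cells (WT, KO) and cells stimulated through TLR4 by 3 h of LPS at 100 ng/ml (WTLPS, KOLPS). Lists for p65, the cohesin subunit SMC1, the insulator protein CTCF, H3K27ac, H3K4me3, H3K4me1 and H3K27me3 covered all 4 conditions, and STAT5 lists covered WT and KO cells restimulated with GM-CSF for 15 min. The cultures are mixed, with a minor fraction of other CD11c+ cells, and the loss of Ctcf itself is not measured by these lists. A single list was at hand for each antibody and condition, with no separate replicates. No difference below therefore has a replicate check or a test, and each interval covers counting error only.

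Lists held from 504 to 96475 peaks. The background coverage of a library, recovered from its peaks as the number of fragments over a background base, lay between 0.705 and 0.855 in the p65 libraries, 4.50 and 5.76 in SMC1, 2.82 and 3.74 in CTCF, 1.33 and 1.70 in STAT5, and 0.748 and 1.20 in H3K27ac, where both KO lists (0.748 and 0.801) lay below both WT lists (1.17 and 1.20). Of 7 dendritic cell markers, 6 had an H3K4me3 promoter peak in all 4 conditions, the exception being H2-Ab1. So did 4 of 4 macrophage markers, 1 of 4 neutrophil markers, 1 of 3 B cell markers, 0 of 3 T cell markers, 0 of 2 NK cell markers and 1 of 2 erythroid markers. Of all protein-coding genes, 56% had such a peak in all 4 conditions. H3K27me3 promoter peaks were found at the dendritic cell markers Zbtb46 and Flt3 in all 4 lists. In WT, H3K27me3 was at 2 of 7 dendritic cell, 2 of 4 macrophage and 2 of 4 neutrophil markers. It was also at 2 of 3 T cell, 2 of 3 B cell, 1 of 2 NK cell and 1 of 2 erythroid markers. Of protein-coding genes, 27.8% had it in WT. H3K4me3 was thus found at promoters of dendritic cell and macrophage genes alike, and the part of other cells in the values below was not tested.

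The genes lie on 5 chromosomes, and their windows share no sequence. Il12a (ENSMUSG00000027776.12) lies at chr3:68690644-68698547 on the plus strand, with 5 annotated transcript starts and no other protein-coding start within 100 kb. Il12b (ENSMUSG00000004296.14, chr11:44400063-44414033, plus strand) has 1 such neighbour, Ublcp1. Il23a (ENSMUSG00000025383.2, chr10:128296139-128298752, minus strand) has 11, the nearest being Pan2 at 4583 bp upstream. Il27 (ENSMUSG00000044701.5, chr7:126589010-126594941, minus strand) has 7, and Ebi3 (ENSMUSG00000003206.7, chr17:55952640-55957022, plus strand) has 10. A peak near Il23a, Il27 or Ebi3 is thus often close to the start of another gene, whereas the surroundings of Il12a and Il12b hold few other starts.

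The sequences that carry the p65 results are printed 5′ to 3′ on the strand of the gene, from the GRCm38 (mm10) genome. The first 3 are windows reaching 50 bases to either side of a p65 summit in WTLPS that hold a full κB motif, searched as GGGNNTTTCC on both strands. Capitals mark that motif, and at Il27 it lies on the opposite strand.
Il12a, chr3:68636903-68637003, summit at -53.7 kb: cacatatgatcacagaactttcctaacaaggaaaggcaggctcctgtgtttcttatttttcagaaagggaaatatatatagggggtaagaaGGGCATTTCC
Il12b, chr11:44348366-44348466, summit at -51.6 kb: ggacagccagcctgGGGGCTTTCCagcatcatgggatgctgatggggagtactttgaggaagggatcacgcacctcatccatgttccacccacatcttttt
Il27, chr7:126596050-126596150, summit at -1159 bp: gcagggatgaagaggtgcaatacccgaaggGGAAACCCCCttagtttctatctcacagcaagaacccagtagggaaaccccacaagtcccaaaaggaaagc

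The next windows belong to the p65 peak with the highest fold at Il12a, to the Il12b peak that was also called in KOLPS, and to the promoter peak of Il23a. Capitals mark runs that differ from the κB motif at 1 letter, and the Il23a window has no such run.
Il12a, chr3:68597007-68597107, summit at -93.6 kb: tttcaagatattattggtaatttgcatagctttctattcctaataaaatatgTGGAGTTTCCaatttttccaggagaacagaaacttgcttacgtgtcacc
Il12b, chr11:44390159-44390259, summit at -9.85 kb: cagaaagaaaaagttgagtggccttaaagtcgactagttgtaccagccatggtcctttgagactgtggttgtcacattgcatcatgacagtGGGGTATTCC
Il23a, chr10:128298813-128298913, summit at -111 bp: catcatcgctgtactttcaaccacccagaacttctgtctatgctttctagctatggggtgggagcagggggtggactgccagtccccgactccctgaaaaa

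RefSeq promoter windows on GRCm38, from 250 bases before to 50 after a start, were at hand for Il12a, Il12b and Ebi3. Those of Il12b and Ebi3 are printed because the promoter p65 summit lies inside them. No full κB motif was found in either, and capitals in the Ebi3 window mark runs that differ from it at 1 letter, of which the Il12b window has none. Only the letters GGGNNTTTCC were searched, so κB sites of other forms would be missed.
Il12b, chr11:44399813-44400112: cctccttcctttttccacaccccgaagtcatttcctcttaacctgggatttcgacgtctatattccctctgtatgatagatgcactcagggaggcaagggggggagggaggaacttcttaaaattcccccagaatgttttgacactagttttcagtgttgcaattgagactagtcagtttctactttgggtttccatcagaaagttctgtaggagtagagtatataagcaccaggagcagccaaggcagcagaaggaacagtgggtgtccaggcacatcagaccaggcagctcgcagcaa
Ebi3, chr17:55952373-55952672: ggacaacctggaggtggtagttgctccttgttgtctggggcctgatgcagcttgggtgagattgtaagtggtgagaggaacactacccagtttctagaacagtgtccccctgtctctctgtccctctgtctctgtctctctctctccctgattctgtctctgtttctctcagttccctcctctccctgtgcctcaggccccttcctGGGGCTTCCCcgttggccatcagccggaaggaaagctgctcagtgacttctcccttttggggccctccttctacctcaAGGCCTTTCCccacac

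The full κB motif was found near 3 of the 21 p65 summits at the family genes (14.3%), near 358 of all 5465 p65 summits of WTLPS (6.55%) and in 0.512% of windows of the same length 1 kb downstream of those summits. With 1 mismatch allowed, the numbers were 9 of 21 (42.9%), 29.7% and 7.08%. Among 32817 RefSeq promoters, 1.63% held the full motif and 25.4% held it with at most 1 mismatch. Most p65 summits at the family genes, like most p65 summits of the list, thus had no full copy of these letters within 50 bp. The interferon response element motif GAAANNGAAA was found at 1 of the 21 sites, the Il12a site at -53.7 kb, and the AP-1 motif TGANTCA at 1, the Il12a site downstream of the start. The STAT5 motif TTCNNNGAA was found at 2 sites (Il27 at -4.37 kb and Ebi3 at -22.1 kb), the C/EBP motif TTNNGNAA at 4 and the CTCF core CCANNAGNNGGC at 0. Over all 5465 p65 summits these motifs were found at 2.53%, 11.2%, 4.87%, 41.5% and 0.293%, in the same order. A match is a description of letters, not of a bound site.

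Binding of p65 was compared first, since it asks whether NF-κB reached these genes after LPS in WT and in KO cells. Within 100 kb of the 5 starts the p65 lists held 0 peaks for WT and 0 for KO, while LPS lists held 21 (WTLPS) and 4 (KOLPS). All 5 genes had more p65 peaks in WTLPS than in WT, against 30.2% of protein-coding genes, and all 5 had fewer in KOLPS than in WTLPS, against 26.1%. A promoter peak in WTLPS and in no other condition was found at 4 of 5 genes (Il12b, Il23a, Il27 and Ebi3), against 1.8% of protein-coding genes. Il12a was the exception, with no p65 promoter peak in any list. These shares are over all protein-coding genes, and each pattern needs a p65 peak in WTLPS. Only 2.86% of protein-coding genes had a p65 promoter peak in WTLPS, and most of those had it in no other condition.

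**Figure D1:**
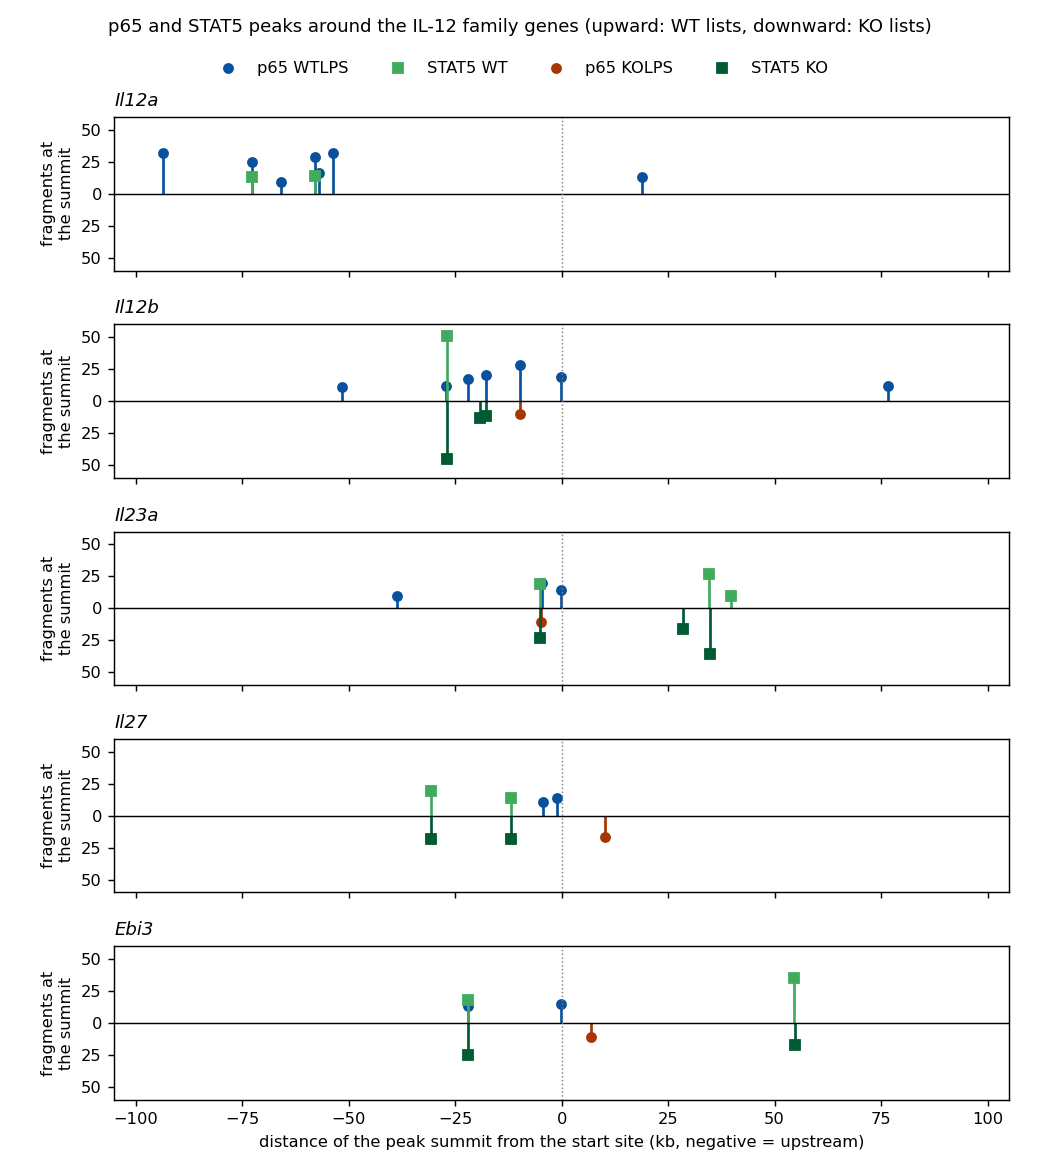
p65 peaks (circles) and STAT5 peaks (squares) by the distance of the summit from the start site (kb, negative is upstream in the direction of the gene) and by the number of fragments at the summit, with WT lists drawn upward and KO lists downward. The p65 lists of unstimulated WT and KO cells had no peak in these windows, and 21 circles point up (WTLPS) against 4 down (KOLPS).

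The shared p40 subunit gene, Il12b, had 7 p65 peaks in WTLPS. The promoter peak had its summit at -193 bp and a fold of 10.8 over background, from 19 fragments (95% Poisson interval 11.4 to 29.7). Upstream peaks lay at -51.6 kb (11 fragments), -27.2 kb (12), -21.9 kb (17), -17.6 kb (20) and -9.85 kb (28), all outside annotated genes, and a further one lay at 76.6 kb (12), at the start of the annotated gene Gm12156. The site at -9.85 kb was the strongest of the gene (fold 15.5). It was also the only one with a p65 peak in KOLPS, where the fold was 6.04 and the fragments numbered 10 (4.80 to 18.4, against 18.6 to 40.5 in WTLPS).

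The p35 subunit gene, Il12a, also had 7 p65 peaks in WTLPS, and 0 in KOLPS. Of the 6 upstream peaks, the one at -93.6 kb lay in an exon of Schip1 (32 fragments, fold 17.8), and those at -72.8 kb (25) and -65.9 kb (9) lay in introns of Iqschfp. Those at -58.0 kb (29), -57.0 kb (16) and -53.7 kb (32) lay outside annotated genes, as did the downstream peak at 18.9 kb (13). Of all protein-coding genes, 0.688% had 7 or more p65 peaks within 100 kb in WTLPS, a number that Il12a and Il12b both reached.

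At the partner subunit genes, p65 peaks were fewer and closer to the starts. Il23a, which encodes p19, had a promoter peak at -111 bp (14 fragments, fold 8.08) and peaks at the starts of Pan2, at -4.54 kb (20), and Cs, at -38.7 kb (10). The Pan2 site also had a peak in KOLPS (11 fragments). Il27, which encodes p28, had a promoter peak at -1159 bp (14, fold 8.08) and a peak at -4.37 kb (11) in WTLPS, and in KOLPS a peak at 10.2 kb, at the start of Apobr (17), that WTLPS did not have. Ebi3 had a promoter peak at -84 bp (15, fold 8.62) and a peak at -22.1 kb (13) in WTLPS, and in KOLPS a peak at 6.98 kb, at the start of Yju2 (11), that WTLPS did not have. Of the 4 KOLPS peaks, 3 thus lay at the start of a neighbouring gene.

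KOLPS peaks overlapped 2 of the 21 WTLPS sites (9.52%, 95% Wilson interval 2.65 to 28.9), and 1242 of all 5465 WTLPS p65 sites (22.7%). None of the 21 peaks was weaker than the lowest -log10 p of the KOLPS list (5.39). Thinned to the coverage of the KOLPS library (0.817, against 0.855 in WTLPS) and held to its lowest -log10 p, 20.99 of the 21 peaks were expected to remain. Coverages this close remove few fragments, so this outcome was largely set beforehand. The study's read totals order these libraries the other way, and a difference in enrichment between them was not modelled. At background level a peak needed 7 fragments in KOLPS and 6 in WTLPS, and a site without a peak in KOLPS may still hold fewer fragments than that.

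**Figure D2:**
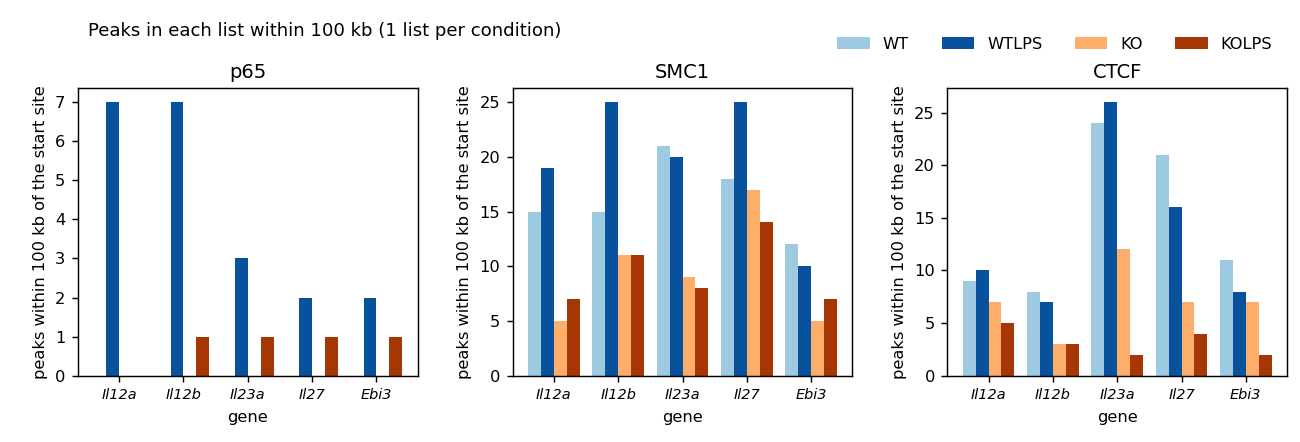
Number of p65, SMC1 and CTCF peaks within 100 kb of the start site of each gene (vertical axes, different scales), with 1 bar for each condition, each from 1 list without replicates. Bars for p65 reach 7 at Il12a and Il12b in WTLPS and at most 1 in KOLPS, and CTCF bars are lower in KO than in WT at all 5 genes.

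STAT5, which GM-CSF signalling activates, had no promoter peak at any of the 5 genes in WT or KO, against 4.72% of protein-coding genes with one. Within 100 kb there were 10 peaks in each list. The strongest lay at Il12b at -27011 bp, with a fold of 22.3 from 51 fragments in WT (38.0 to 67.1) and a fold of 17.0 from 45 fragments in KO (32.8 to 60.2). These intervals overlap, and the KO library had the higher coverage (1.70 against 1.33). The peak overlaps the p65 peak of WTLPS at -27.2 kb.

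Other STAT5 peaks differed between the lists by gene. Il12a had 2 in WT, at -72.6 kb (13 fragments) and -57.9 kb (14), both overlapping p65 sites of WTLPS, and 0 in KO. Il12b had peaks in KO alone at -19.1 kb (13) and -17.6 kb (12). Near Il23a, peaks at the Pan2 start (19 fragments in WT, 23 in KO) and at 34.7 kb (27 and 36) were in both lists, a peak at 39.7 kb (10) was in WT alone and a peak at the Stat2 start (16) was in KO alone. Il27 had peaks in both lists at -11.9 kb (14 and 18) and -30.7 kb (19 and 18). Ebi3 had peaks in both at -22.0 kb (18 and 25), over the p65 site, and at the Stap2 start (35 and 17). Of the 21 p65 sites, 5 were overlapped by STAT5 in WT (23.8%, against 26.99% of all p65 sites) and 3 in KO (14.3%, against 21.4%). The peaks found in 1 list alone had 10 to 16 fragments, where a peak at background level needed 8 in WT and 9 in KO.

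CTCF was found at the promoter of 1 of the 5 genes, Il12b, while 37.6% of protein-coding genes had a CTCF promoter peak in at least 1 condition. The Il12b peak was called in all 4 lists. Its summit lay at -871 bp in WT (fold 17.3, 81 fragments, 64.3 to 100.7), -866 bp in WTLPS (13.9, 62), -742 bp in KO (6.08, 23, 14.6 to 34.5) and -862 bp in KOLPS (5.76, 21). The WT and KO intervals do not overlap, at a coverage of 3.74 and 2.95. The window around the WT summit is printed because CTCF stayed detectable there in KO. It holds no exact match to the CTCF core given above, which 27.1% of all WT CTCF summits do. On the opposite strand its run gccctctatcgg differs from that core at 1 letter, and such near matches were not counted for CTCF.
Il12b, chr11:44399142-44399242: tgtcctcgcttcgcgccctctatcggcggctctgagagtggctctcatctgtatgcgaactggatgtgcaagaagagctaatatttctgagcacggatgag

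Within 100 kb, CTCF peaks numbered 73 and 67 in the WT and WTLPS lists, and 36 and 16 in the KO and KOLPS lists. All 5 genes had fewer in KO than in WT, as did 84.8% of protein-coding genes. In the order WT, WTLPS, KO and KOLPS, Il12a had 9, 10, 7 and 5 peaks and Il12b 8, 7, 3 and 3. Il23a had 24, 26, 12 and 2, Il27 21, 16, 7 and 4, and Ebi3 11, 8, 7 and 2. Il23a thus went from the most CTCF peaks of the family in WT to 2 in KOLPS, and Il12a, with 9 in WT, had 5 in KOLPS. Of the 73 WT peaks, 29 were overlapped by a KO peak and 16 by a KOLPS peak. The same shares over all WT CTCF peaks were not computed, so these cannot be called particular to the family. The whole CTCF lists held 60537 peaks in WT, 20151 in KO and 11576 in KOLPS.

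The CTCF peak with the highest WT fold at each gene, chosen after the values were seen, had a peak in all 4 lists. It lay at 23.2 kb from Il12a (fold 35.7, 28.7, 15.4 and 10.99), 53.5 kb from Il12b (39.9, 36.2, 11.6 and 6.80), -37.0 kb from Il23a (29.5, 25.6, 11.1 and 7.59), -48.5 kb from Il27 (54.0, 43.9, 8.10 and 7.85) and 84.1 kb from Ebi3 (34.8, 24.3, 17.0 and 17.3). Fold was lower in KO than in WT at each, although picking the highest WT fold favours a lower value in other lists. At Il12a, Il12b, Il23a and Il27 the same element also held the strongest SMC1 peak of the WT list (fold 22.5, 30.3, 16.2 and 43.3), and at Il23a no SMC1 peak was called there in KO or KOLPS.

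SMC1, a subunit of the cohesin ring that holds DNA loops, gave 81 and 99 peaks within 100 kb in the WT and WTLPS lists, and 47 in each of the KO and KOLPS lists. Fewer were found in KO than in WT at 5 of 5 genes (83.6% of protein-coding genes) and in KOLPS than in WTLPS at 5 of 5 (85.1%). More were found in WTLPS than in WT at 3 of 5 genes, Il12a (15 to 19), Il12b (15 to 25) and Il27 (18 to 25), against 17.8% of protein-coding genes. At Il23a the count went from 21 to 20 and at Ebi3 from 12 to 10. In KO and KOLPS the counts were 5 and 7 at Il12a, 11 and 11 at Il12b, 9 and 8 at Il23a, 17 and 14 at Il27 and 5 and 7 at Ebi3. Thinned to the lowest SMC1 coverage, the sums were 71.6, 86.6, 39.2 and 47.0.

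Of the 99 SMC1 peaks of WTLPS, 33 had no overlapping peak in WT, 14 of them at Il12b, 9 at Il27, 6 at Il12a, 3 at Il23a and 1 at Ebi3. Among these 33, 21 were overlapped by H3K27ac in WTLPS, 5 by p65 and 6 by an SMC1 peak of KOLPS. The same shares over all 57354 SMC1 peaks of WTLPS were not computed. These counts thus cannot be called particular to the family. An SMC1 promoter peak in all 4 conditions was found at 3 of 5 genes (Il12b, Il23a and Ebi3), against 9.49% of protein-coding genes. At Il23a its fold in WT, WTLPS, KO and KOLPS was 3.59, 7.10, 4.26 and 4.91, and at Ebi3 it was 5.31, 5.62, 5.36 and 5.64. The Ebi3 peak was thus much the same in all 4 lists, with 33, 37, 33 and 30 fragments. At Il12b the highest promoter fold was 8.59, 10.1, 3.63 and 4.37. Il27 had no SMC1 promoter peak in WT and a highest fold of 6.36 in WTLPS, 3.63 in KO and 4.37 in KOLPS, and Il12a had none in any list.

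**Figure D3:**
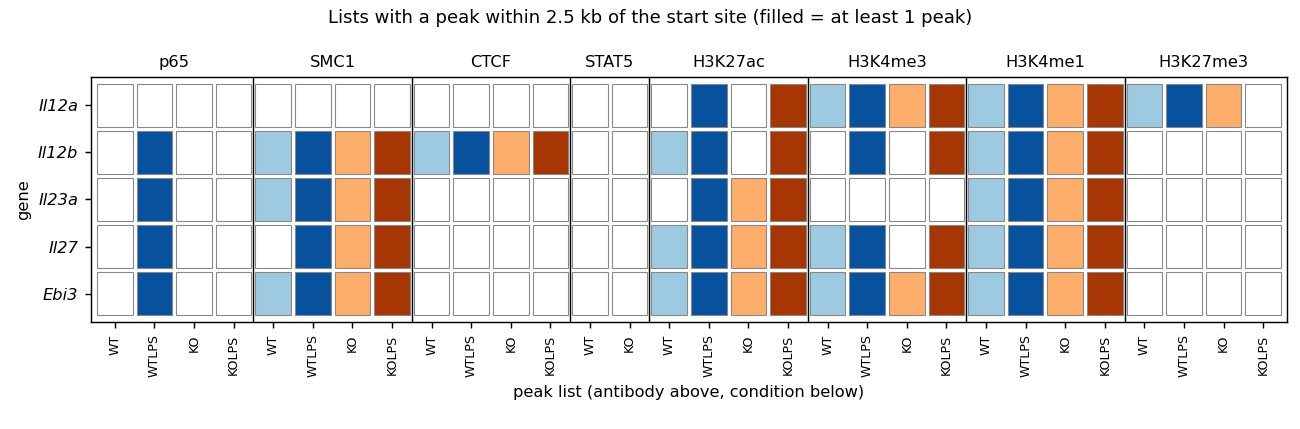
Presence of a peak within 2.5 kb of the start site of each gene (rows) in each of the 30 lists (columns, grouped by antibody, coloured by condition); empty squares are lists with no peak there. For p65 only the WTLPS column is filled, at 4 of 5 genes, and H3K4me1 is filled throughout.

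Promoter marks differed between the genes. H3K4me3, a mark of active starts, was at the promoter in all 4 conditions at 2 of 5 genes, Il12a (fold 11.7, 15.8, 8.63 and 9.87) and Ebi3 (13.4, 19.0, 16.4 and 15.4), against 56% of protein-coding genes. At Il12b it was found in WTLPS (fold 7.43) and KOLPS (5.64) and in neither unstimulated list, a pattern of 0.128% of protein-coding genes. The KOLPS peak of Il12b had 11 fragments and a -log10 q of 6.37, so that it was lost, and the pattern with it, when a -log10 q of at least 10 was asked for. Il27 had H3K4me3 in WT (7.07), WTLPS (14.4) and KOLPS (5.88), and Il23a in none. H3K4me1, a mark of enhancers and of the flanks of starts, was found at all 5 promoters in all 4 lists, against 44.8% of protein-coding genes.

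H3K27ac, a mark of active enhancers and promoters, was found at 3 promoters in each unstimulated list (45.2% of protein-coding genes in WT and 45.6% in KO) and at 5 in both LPS lists (42.1% in WTLPS and 41.8% in KOLPS). At Il12a it was called in WTLPS (fold 4.55, 9 fragments, summit at 1578 bp) and KOLPS (3.89, 6 fragments where 5 were needed, summit at 2045 bp) alone, toward the edge of the promoter window. At Il12b the highest promoter fold was 5.98 in WT, 12.3 in WTLPS and 4.998 in KOLPS, with no peak in KO. Il23a had no peak in WT, folds of 4.00 in KO and 5.55 in KOLPS, and in WTLPS a peak of fold 8.65 over the start and the edge of a peak of fold 18.2 whose summit lay near the Pan2 start. The highest promoter folds were 5.79, 21.8, 5.72 and 11.5 at Il27 and 11.5, 19.6, 17.2 and 18.9 at Ebi3, in the order WT, WTLPS, KO and KOLPS. The count of 5 did not hold under each setting. With promoters of 1 kb it was 4 in WTLPS and 4 in KOLPS, against 3 in WT and 3 in KO, and under the stricter threshold it was 4 and 2, against 1 and 1.

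Within 100 kb of the start, H3K27ac peaks covered more bases in WTLPS than in WT at all 5 genes (29.6% of protein-coding genes). They covered fewer in KOLPS than in WTLPS at all 5 (67.2%). At Il12a they covered 7.75 and 40.8 kb in the WT and WTLPS lists, and 2.54 and 13.3 kb in the KO and KOLPS lists. At Il12b the values, in the order WT, WTLPS, KO and KOLPS, were 23.0, 52.5, 9.64 and 14.9 kb, and at Il27 they were 15.0, 30.5, 15.0 and 18.0 kb. At Il23a they were 25.9, 33.4, 17.1 and 16.6 kb and at Ebi3 18.3, 27.6, 16.8 and 17.2 kb. Il12a thus had the largest relative rise, 5.26-fold from WT to WTLPS and 5.22-fold from KO to KOLPS, reached by 0.893% and 0.247% of genes with H3K27ac, whose median ratios were 0.860 and 0.726. From WTLPS to KOLPS the ratio was 0.325 at Il12a, 0.283 at Il12b, 0.497 at Il23a, 0.590 at Il27 and 0.622 at Ebi3, and the median over genes was 0.610. H3K27ac coverage of the library was 1.20 in WTLPS and 0.801 in KOLPS, and its part in these ratios was not tested.

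**Figure D4:**
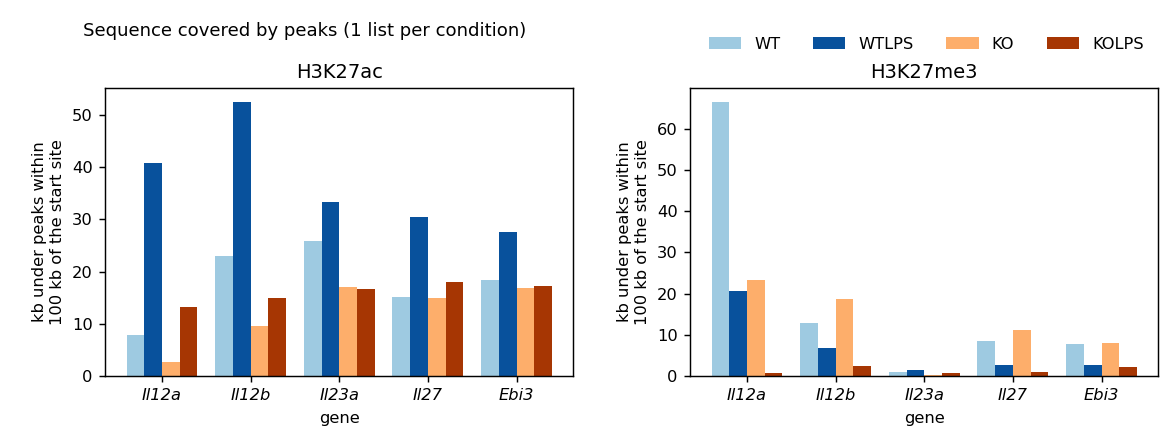
Kilobases under H3K27ac and H3K27me3 peaks within 100 kb of the start site of each gene (vertical axes), with 1 bar for each condition, each from 1 list without replicates. H3K27ac is highest in WTLPS at all 5 genes, and H3K27me3 reaches 66.6 kb at Il12a in WT.

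H3K27me3, the mark that Polycomb complexes place on silent genes, was found at 1 of 5 promoters in WT, that of Il12a, against 27.8% of protein-coding genes. It was also there in WTLPS and KO and not in KOLPS. Within 100 kb of Il12a it covered 66.6 and 20.7 kb in the WT and WTLPS lists and 23.2 and 0.627 kb in the KO and KOLPS lists, and 2.65% of protein-coding genes had as much in WT. The ratio of WTLPS to WT was 0.311 at Il12a, where the median over genes with the mark was 0.433 and 71.2% of them were at or above the Il12a value. That of KO to WT was 0.348, where the median was 0.973 and 90.3% were at or above it. Its widest WT peak ran over 20.2 kb, at chr3:68617164-68637401, which is the stretch with 5 of the 7 p65 sites of Il12a in WTLPS. H3K27me3 lay over those 5 sites in WT, over 1 of them in KO and over 0 in WTLPS and KOLPS. Of all p65 sites, 2.20% and 0.604% were under H3K27me3 in the WT and WTLPS lists and 1.19% and 0.128% in the KO and KOLPS lists, so that the share was highest in WT over all sites too.

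The lists of this mark differ in size and threshold, from 96475 peaks with a lowest -log10 p of 2.72 in WT to 26960 with 3.47 in KOLPS. Held to the lowest value of the KOLPS list throughout, Il12a had 53.7, 20.5, 15.4 and 0.627 kb. The other 4 genes had between 0.847 and 12.8 kb in WT. The largest values outside Il12a were those of Il12b in WT (12.8 kb) and KO (18.7 kb).

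What lay at the 21 p65 sites of WTLPS was counted in every list, in the order WT, WTLPS, KO and KOLPS. SMC1 overlapped 13, 18, 10 and 14 sites (61.9%, 85.7%, 47.6% and 66.7%), against 72.4%, 88.0%, 66.8% and 65.2% of all p65 sites. H3K27ac overlapped 10, 20, 9 and 17 sites (47.6%, 95.2%, 42.9% and 81.0%), against 64.6%, 75.4%, 66.2% and 66.3%. CTCF overlapped 2 sites in each list, the Il12b promoter and the Il12a site at 18.9 kb (9.52%), against 7.76%, 6.33%, 1.81% and 1.04% of all p65 sites. H3K4me1 overlapped 18, 19, 18 and 13 sites (85.7%, 90.5%, 85.7% and 61.9%), close to the 89.1%, 90.6%, 86.6% and 71.4% of all p65 sites.

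H3K27ac at these sites was thus more often called after LPS than before in both genotypes, while p65 itself was called in KOLPS at 2 of them. The 95% Wilson interval for H3K27ac was 28.3 to 67.6% in WT and 77.3 to 99.2% in WTLPS. These intervals take the sites as independent, although some lie under the same H3K27ac peak, as both Il27 sites do in WTLPS. They cover counting error only and are no test between the conditions. At the Il12a sites H3K27ac went from 2 of 7 in WT to 7 in WTLPS and from 3 in KO to 6 in KOLPS. At the Il12b sites it went from 5 of 7 to 7 and from 2 to 5. The site without H3K27ac in WTLPS was that of Ebi3 at -22.1 kb, where STAT5 peaks were found in both genotypes.

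**Figure D5:**
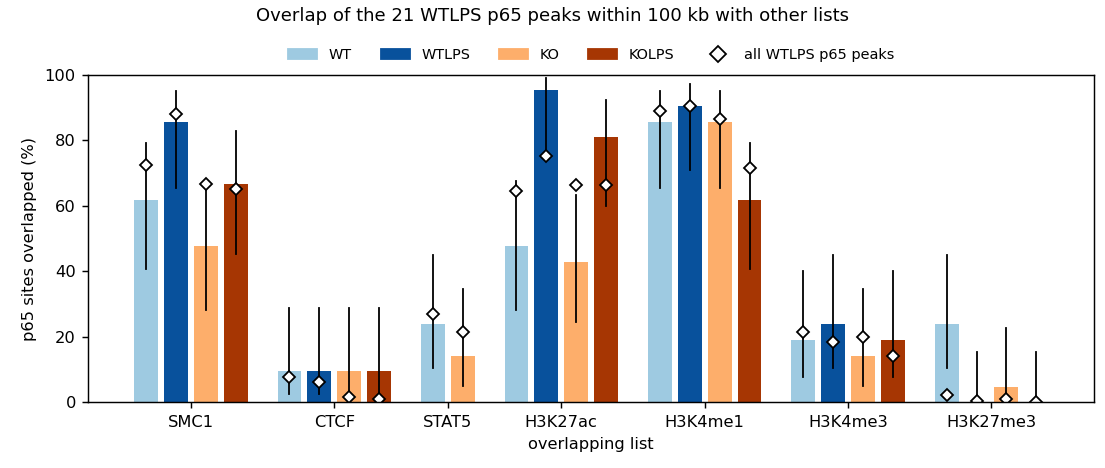
Share of the 21 WTLPS p65 peaks at the family genes that each other list overlaps by at least 1 bp (bars, with 95% Wilson intervals as lines), and the same share over all 5465 WTLPS p65 peaks (diamonds). H3K27ac rises from 47.6% in WT to 95.2% in WTLPS and from 42.9% in KO to 81.0% in KOLPS, and CTCF stays at 9.52%.

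Receptors and signalling proteins of the family were looked at by a fixed list of 11 genes. In WTLPS 3 of them had a p65 promoter peak (Il23r, the IL-23 receptor chain, and Jak2 and Stat3, which transmit its signal), against 2.86% of protein-coding genes, and in KOLPS 1 did (Jak2, 1.95%). None had a p65 promoter peak in WT or KO. STAT5 was at 3 promoters in WT (Il12rb2, an IL-12 receptor chain, Jak2 and Stat3), against 4.08% of protein-coding genes, and at 1 in KO (Il12rb2), against 3.396%. Of 9 transcription factors known to act on these genes, 5 had a p65 promoter peak in WTLPS (Rela, Rel, Nfkb1, Irf1 and Irf5), and 2 in each of WT, KO and KOLPS (Rel and Nfkb1). Over protein-coding genes the shares were 2.86% in WTLPS, 0.501% in WT, 0.369% in KO and 1.95% in KOLPS. Rel had a p65 promoter fold of 13.5 in WTLPS and 15.4 in KOLPS and Nfkb1 of 14.6 and 13.2, and both had the peak before LPS as well. Rela (fold 7.55), Irf1 (4.85) and Irf5 (4.85) had it in WTLPS alone, the pattern of Il12b, Il23a, Il27 and Ebi3.

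The genes whose promoters carried the most similar set of peaks were found by counting the lists, out of 30, in which both had a peak or both had none, and by the similarity of their counts within 100 kb where this tied. Spata3 and Ildr1 matched Il12a in 29 lists, as did 14 genes in all, and Ccdc194 and Ang2 matched Il23a in 29, as did 5 in all. Washc1 alone matched Il27 in 29, and Vars matched it in 28, where 92 genes had as many. Birc2 and Zswim7 matched Il12b in 27, the lowest value of the family, as did 6 genes in all. Both had H3K4me3 in all 4 conditions where Il12b had it after LPS alone. Cd14 and Itgb2 matched Ebi3 in all 30 lists, and so did 57 genes in all.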

How the data were processed

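The deposited values are those of MACS2 peak lists made by the authors: per the labels, a fold enrichment over background (a ratio) and the −log10 of a p-value and of a q-value for each peak. Read pairs were trimmed and aligned to mm10 (bwa), duplicates were dropped (picard), and peaks were called with MACS2. Which control entered the calls is not given in the sources used here. Their processing notes name BWA 0.7.12, Picard 1.77 and MACS2 2.1.2, while their methods give later versions. CTCF, SMC1, p65, STAT5, H3K27ac and H3K4me3 lists hold narrow peaks, H3K4me1 and H3K27me3 lists broad ones. The methods speak of peaks for each replicate, while the reporting summary gives 2 ChIP-seq replicates per condition and says, of the experiments in general, that replicates were merged once found reproducible. The 1 list per condition may thus be a merged one. H3K4me1 peak names carry another supplier than the labels, and labels and methods give different STAT5 antibody numbers. The reporting summary also gives read totals, which order the p65 libraries differently from the coverage used here. WTLPS had fewer p65 reads than KOLPS, but the higher coverage. The 4 inputs have no list and were not used.

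Peaks sharing at least 1 bp with a window were counted (Python 3.11.15, pandas 2.3.3, scipy 1.17.1). The fragments behind each narrow peak were recovered as the whole number that gave back its fold and −log10 p within 0.002, and the most frequent background level was taken as coverage. Fragment recovery, coverage, window counts, bases covered, thinning and the search for full κB motifs were tested on simulated data. Intervals are 95% Poisson intervals for fragments and 95% Wilson intervals for shares. With 1 list per condition no test was run. Alternatives were a stricter threshold (−log10 q of at least 10 in narrow lists) and at least 50% of a peak inside the window. Windows of 50 and 200 kb to either side of the start and promoters of 1 kb were also used. Others were all transcript starts and thinning to a common coverage. Genes were named by fixed lists, as the members, their receptors and signalling proteins, and their transcription factors, plus the most similar promoters. The members and lists were chosen with earlier results of these data known.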

Additional observations from a re-analysis of the deposited data

Results flagged for a closer look

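In 5 cases the number of peaks or the bases covered within 100 kb went in opposite directions with LPS in WT and in KO cells, each from 1 list per condition, so that the difference was not tested. SMC1 peaks at Il27 changed by 7 from WT to WTLPS and by -3 from KO to KOLPS. SMC1 peaks at Ebi3 changed by -2 and by 2. CTCF peaks at Il12a changed by 1 and by -2, and at Il23a by 2 and by -10. Bases under H3K27ac at Il23a changed by 7.55 kb and by -0.473 kb.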

How the results depend on the processing

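Of 200 values under alternative settings, 146 stayed within 1.5 times the reported value and 54 did not. p65 peaks were more in WTLPS than in KOLPS under each. No paired analysis was possible because each condition has a single list with no replicate number. In the order WT, WTLPS, KO and KOLPS, a window of 50 kb to either side gave 40, 37, 19 and 10 CTCF peaks. It gave 47, 63, 23 and 30 SMC1 peaks, 51.0, 114.5, 35.5 and 50.2 kb of H3K27ac, and 13 p65 peaks in WTLPS. A window of 200 kb to either side gave 3 p65 peaks in WT, 2 in KO and 7 in KOLPS. In the same order of lists it gave 138, 125, 57 and 31 CTCF peaks, and 148, 157 and 77 SMC1 peaks in the first 3. H3K27ac then covered 149.1, 108.0 and 122.7 kb in WT, KO and KOLPS. Under the stricter threshold p65 peaks numbered 11 in WTLPS and 1 in KOLPS, and 2 members (Il12b and Ebi3) had a p65 promoter peak. It gave 17 CTCF peaks in KO and 10 in KOLPS, 62, 19 and 8 SMC1 peaks in WTLPS, KO and KOLPS, 6 STAT5 peaks in WT and 4 in KO, and 45.4, 104.97, 25.01 and 25.5 kb of H3K27ac. Promoters with H3K4me3 in KOLPS then numbered 2 (Il12a and Ebi3, with Il12b and Il27 lost), and those with H3K27ac 1 in WT, 1 in KO and 2 in KOLPS. With the partner lists held to it, SMC1 overlapped 8 p65 sites in WT, 5 in KO and 5 in KOLPS, and H3K27ac 4, 3 and 7. With at least 50% of the p65 peak covered, H3K27ac overlapped 5, 13, 4 and 8 sites. For p65, STAT5 and H3K27ac, a common lowest −log10 p, chosen after seeing the data, changed none of these values by more than 1.5 times.

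The lists hold no separate replicates, so a difference between conditions cannot be told apart from a difference between libraries. With 6 to 8 fragments needed for a p65 peak at background level, weaker binding was not detectable at this depth. Lists end at different p-values, and a broad list's fold is an average over a region.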
